A study of Mus musculus and Rattus norvegicus with 32 samples.

Results

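The m6A methyltransferase METTL5, its binding partner TRMT112 and 8 other proteins that write or remove methyl marks on adenines of RNA were followed at the transcript level in mouse hearts and rat cardiomyocytes labelled as lacking METTL5 or given it in excess. The 10 genes (Mettl5, Trmt112, Zcchc4, Mettl16, Pcif1, Mettl3, Mettl14, Wtap, Fto and Alkbh5) were taken by their symbol from each of 4 count tables. The set was chosen with earlier results of these data known. Each symbol was found once among the 55487 genes of the 3 mouse tables and once among the 32883 genes of the rat table. The comparisons asked how high each enzyme stood in each group, and whether other writers or erasers of m6A were raised or lowered when METTL5 was manipulated.

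The study sequenced RNA from 32 libraries, 4 in each of 8 groups. Hearts of C57BL/6 mice aged 1 month were labelled Ctrl or Mettl5-KO, and the sources used here do not describe the allele of these KO animals. Hearts of C57BL/6 mice aged 3 months were labelled Ctrl or Mettl5-cKO, a strain that carries Myh6-Cre, which is active in cardiomyocytes, together with a Mettl5 allele whose exons 2 to 4 are flanked by loxP sites. Hearts with the same pair of genotypes were also collected 4 weeks after transverse aortic constriction (TAC), an operation that narrows the aorta and loads the left ventricle, and these mice too were labelled as 3 months old. The controls of the cKO animals were littermates, and whether they carried the Cre or the floxed allele is not given in the sources used here. Neonatal rat ventricular cardiomyocytes (NRVMs) came from Sprague Dawley rats of postnatal day 2, were pre-plated to deplete fibroblasts, and received an adenovirus encoding GFP (AdGFP) or METTL5 (AdMettl5). All NRVMs were also given phenylephrine (PE, 20 µM) for 24 h, an adrenergic agonist that drives hypertrophic growth, so that both arms were stimulated. The AdMettl5 insert was the human coding sequence behind a murine cytomegalovirus promoter, and the count of the rat Mettl5 gene is therefore no measure of the transgene. Nothing in the labels states that the 4 libraries of a group came from separate animals or cultures, so p-values measure the spread between these libraries.

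N6-methyladenosine is laid down on RNA by several methyltransferases, all of which use S-adenosylmethionine as methyl donor. METTL5 methylates a single adenine of 18S rRNA near the decoding centre of the ribosome and is unstable without TRMT112, a small protein that also serves other methyltransferases. ZCCHC4 methylates an adenine of 28S rRNA, METTL16 methylates U6 snRNA and hairpins of the Mat2a transcript, and PCIF1 modifies the first nucleotide after the mRNA cap. In messenger RNA the mark is written by METTL3, the catalytic subunit, together with METTL14, which holds the RNA, and WTAP, the adaptor that brings the pair to nuclear speckles. FTO and ALKBH5 are demethylases that remove it.

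The part of Mettl5 that the conditional allele removes is shown first, since it decides what a count over the whole gene can register. Mouse Mettl5 (ENSMUSG00000051730) lies on the minus strand at chr2:69871198-69885615 of GRCm38. The GENCODE transcript with its longest coding sequence has 7 exons and 968 bases, of which exons 2 to 4 make up 380 bases (39.3%), all of them coding. These 380 bases hold 60.6% of the 627 coding bases, and their number leaves a remainder of 2 when divided by 3. The 3 exons are given 5′ to 3′ in the sense of the transcript, with the 4 codons of the NPPF motif, at which METTL5-type enzymes bind the target adenine, in capitals.
Mettl5 exon 2, chr2:69881297-69881411: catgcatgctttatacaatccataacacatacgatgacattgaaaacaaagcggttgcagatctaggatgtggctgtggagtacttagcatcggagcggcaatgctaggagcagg
Mettl5 exon 3, chr2:69880767-69880948: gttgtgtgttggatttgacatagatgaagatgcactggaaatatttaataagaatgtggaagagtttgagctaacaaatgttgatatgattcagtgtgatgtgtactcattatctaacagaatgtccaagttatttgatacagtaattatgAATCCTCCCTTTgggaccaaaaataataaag
Mettl5 exon 4, chr2:69879102-69879184: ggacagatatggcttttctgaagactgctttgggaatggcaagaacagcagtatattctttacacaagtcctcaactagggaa

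The motif stands at codons 126 to 129, in exon 3, and occurs once in the coding sequence. The 5 other methyltransferases of the set with a known catalytic or former catalytic site of this kind carry a related motif, and the codons around it are shown because they mark what the 6 proteins share. In each line the capitals mark the 4 codons of the motif, in the mouse transcript and flanked by their neighbouring codons.
Mettl5, NPPF: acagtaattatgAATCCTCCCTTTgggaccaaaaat
Mettl16, NPPF: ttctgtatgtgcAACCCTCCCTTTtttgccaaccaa
Pcif1, NPPF: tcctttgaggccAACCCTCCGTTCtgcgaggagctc
Zcchc4, DPPF: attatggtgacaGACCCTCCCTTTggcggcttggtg
Mettl3, DPPW: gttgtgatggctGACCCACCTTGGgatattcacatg
Mettl14, EPPL: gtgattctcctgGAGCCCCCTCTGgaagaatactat

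Mettl5, Mettl16 and Pcif1 spell the same 4 residues, Zcchc4 and Mettl3 carry the DPP start of that family, and Mettl14, whose site is not catalytic in the METTL3 complex, carries EPPL. The motifs lie at codons 184 to 187 of 593 in Mettl16, 552 to 555 of 706 in Pcif1, 274 to 277 of 512 in Zcchc4, 395 to 398 of 580 in Mettl3 and 192 to 195 of 456 in Mettl14. Trmt112, Wtap and the demethylases are not of this family.

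The libraries held 19899030 to 21804910 counts in the hearts and 14324700 to 18085340 in the NRVMs, where the AdMettl5 libraries (14324700 to 14642430) were all shallower than the AdGFP libraries (17344430 to 18085340). Counts of a member ranged from 66 to 1308 in a heart library and from 76 to 1608 in an NRVM library, and all 10 passed the filter on low counts in every comparison. Values below are CPM (counts scaled to a library total of 1000000, after TMM), and changes are log2 fold changes from edgeR with their standard error (SE), called changed at an adjusted p under 0.05 over all genes tested. At 1 month, the libraries numbered 1 of both groups had 53 and 70 counts of Xist against 3044 to 4879 in the other 6. Of the Y-linked gene Ddx3y they had 814 and 587 counts, against 0 to 2 in the other 6. All hearts at 3 months and after TAC had 727 to 1141 counts of Ddx3y and 9 to 73 of Xist. By these transcripts both groups at 1 month held both sexes, and the other heart groups were male. Cardiomyocyte markers (Myh6, Tnnt2, Actc1, Ryr2, Tnni3, Myl2 and Pln, summed) stood at 19870 to 42921 CPM in the hearts. In NRVMs the same sum was 28794 to 36966 CPM with AdGFP and 12196 to 13702 CPM with AdMettl5, beside 9078 to 12098 CPM of fibroblast markers. In such bulk samples, fewer cells of a type and less RNA per cell cannot be told apart.

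On GRCm38 the other mouse members lie at chr19:6909698-6911049 (Trmt112), chr5:52775409-52824665 (Zcchc4), chr11:74770830-74828525 (Mettl16), chr2:164879304-164894454 (Pcif1), chr14:52294841-52305128 (Mettl3), chr3:123368297-123386108 (Mettl14), chr17:12966796-12994169 (Wtap), chr8:91313525-91668439 (Fto) and chr11:60536381-60558512 (Alkbh5), all annotated as protein coding. Several members share exon sequence with a neighbour on the other strand. This applied to 409 bases (33.2% of the exon bases) of Trmt112 with Prdx5, 933 bases (18.4%) of Mettl3 with Tox4, 1107 bases (16.9%) of Pcif1 with Zfp335, and 169 bases (6.9%) of Mettl5 with Ssb. Whether counting used strand is not given in the sources used here, so reads in the shared stretches could have gone to either gene. Trmt112 is the most exposed: it had 174 to 345 counts in a heart library while Prdx5, an antioxidant enzyme, had 3198 to 6028, and it shares another 73 bases (5.9%) with Esrra. Trmt112-ps1 and Trmt112-ps2, pseudogenes of Trmt112, had 27 to 46 and 53 to 81 counts. In the heart libraries Mettl5 itself overlaps a minor same-strand transcript, Gm13625, with at most 6 counts.

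Compared per length, Trmt112 was among the most abundant members and Zcchc4 the least abundant in the control hearts. With the union of all annotated exons as length, Trmt112 had medians of 10.9, 8.49 and 9.23 CPM per kb in Ctrl hearts at 1 month, at 3 months and after TAC, and Zcchc4 had 0.643, 0.566 and 0.465. Between them the order at 3 months was Alkbh5 (8.19), Pcif1 (3.67), Fto (3.20), Wtap (3.07), Mettl5 (2.96), Mettl3 (1.504), Mettl14 (1.43) and Mettl16 (0.883). Of these neighbours, Trmt112 and Alkbh5, Pcif1 and Fto, Fto and Wtap, Wtap and Mettl5, and Mettl3 and Mettl14 had overlapping ranges over the 4 libraries, while Alkbh5 and Pcif1, Mettl5 and Mettl3, Mettl14 and Mettl16, and Mettl16 and Zcchc4 did not. Most of this order depended on the length used. With the transcript of the longest coding sequence, Fto (11.7) stood above Trmt112 (10.6), Wtap (9.32), Alkbh5 (8.55), Mettl5 (7.45), Mettl16 (5.89), Pcif1 (4.16), Mettl14 (3.87), Mettl3 (3.77) and Zcchc4 (1.07) in Ctrl hearts at 3 months. The union of exons is 13817 bases for Mettl16 and 13031 for Fto against 2073 and 3564 for their transcripts, and Zcchc4 had the lowest median with both lengths in all 6 heart groups. Lengths for the rat genes were not used here, and the members are not ranked in NRVMs.

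**Figure D1:**
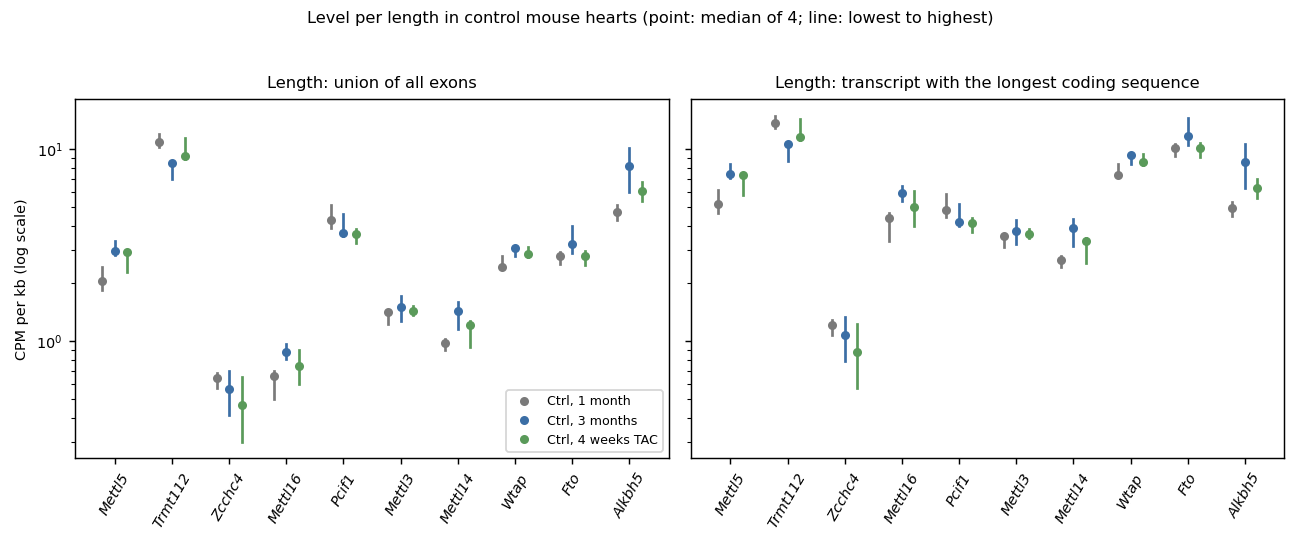
CPM per kb (log axis) of the 10 genes in the 3 control heart groups, with the union of exons as length (left) and with the transcript of the longest coding sequence (right). Points are medians of 4 libraries and lines run from the lowest to the highest. Zcchc4 is lowest in both panels, while Mettl16, Fto, Pcif1 and Mettl5 change places between them.

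Mettl5 was a low-count gene in every heart. The 4 libraries had 4.50, 5.93, 5.37 and 4.65 CPM in Ctrl hearts and 5.26, 5.27, 6.61 and 6.70 CPM in Mettl5-KO hearts at 1 month. At 3 months the values were 7.41, 8.11, 7.02 and 6.86 CPM in Ctrl hearts and 5.60, 6.27, 6.87 and 7.28 CPM in Mettl5-cKO hearts. After TAC they were 7.13, 7.09, 5.61 and 7.12 CPM in Ctrl hearts and 7.31, 5.60, 6.38 and 7.03 CPM in Mettl5-cKO hearts. The groups overlapped in each of the 3 comparisons, as they did for all 10 members (groups without overlap made up 3.01% of all genes tested at 1 month, 4.23% at 3 months and 18.6% after TAC). The count of the whole Mettl5 gene thus did not separate the genotype labels. The tables were scaled separately, so levels are compared only within an experiment.

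The fitted log2 fold change of Mettl5 was 0.22 (SE 0.15, 95% interval -0.11 to 0.55, adjusted p = 0.973) in Mettl5-KO hearts at 1 month. It was -0.18 (SE 0.12, -0.44 to 0.08, adjusted p = 0.884) in Mettl5-cKO hearts at 3 months and -0.04 (SE 0.12, -0.30 to 0.23, adjusted p = 0.874) after TAC. Exact permutation tests over the 4 libraries against 4 gave two-sided p = 0.171, 0.143 and 0.80. For scale, the 968-base transcript, had it lost only the 380 bases of exons 2 to 4 and kept its abundance in every cell, would give -0.72 under even coverage. All annotated exons of the gene together span 2437 bases, and over that length the same loss would be a smaller part. The intervals at 3 months and after TAC do not reach -0.72, but that value depends on the length used and no conclusion is drawn from it. The counts hold no exon-level values, and a whole heart also holds cells in which Myh6-Cre is not active, so neither the deletion nor its extent can be read from them. The groups are called below by their labels for that reason. The paper itself, from a view of the sequencing reads along the gene, reported the floxed exons as nearly absent from Mettl5-cKO hearts.

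**Figure D2:**
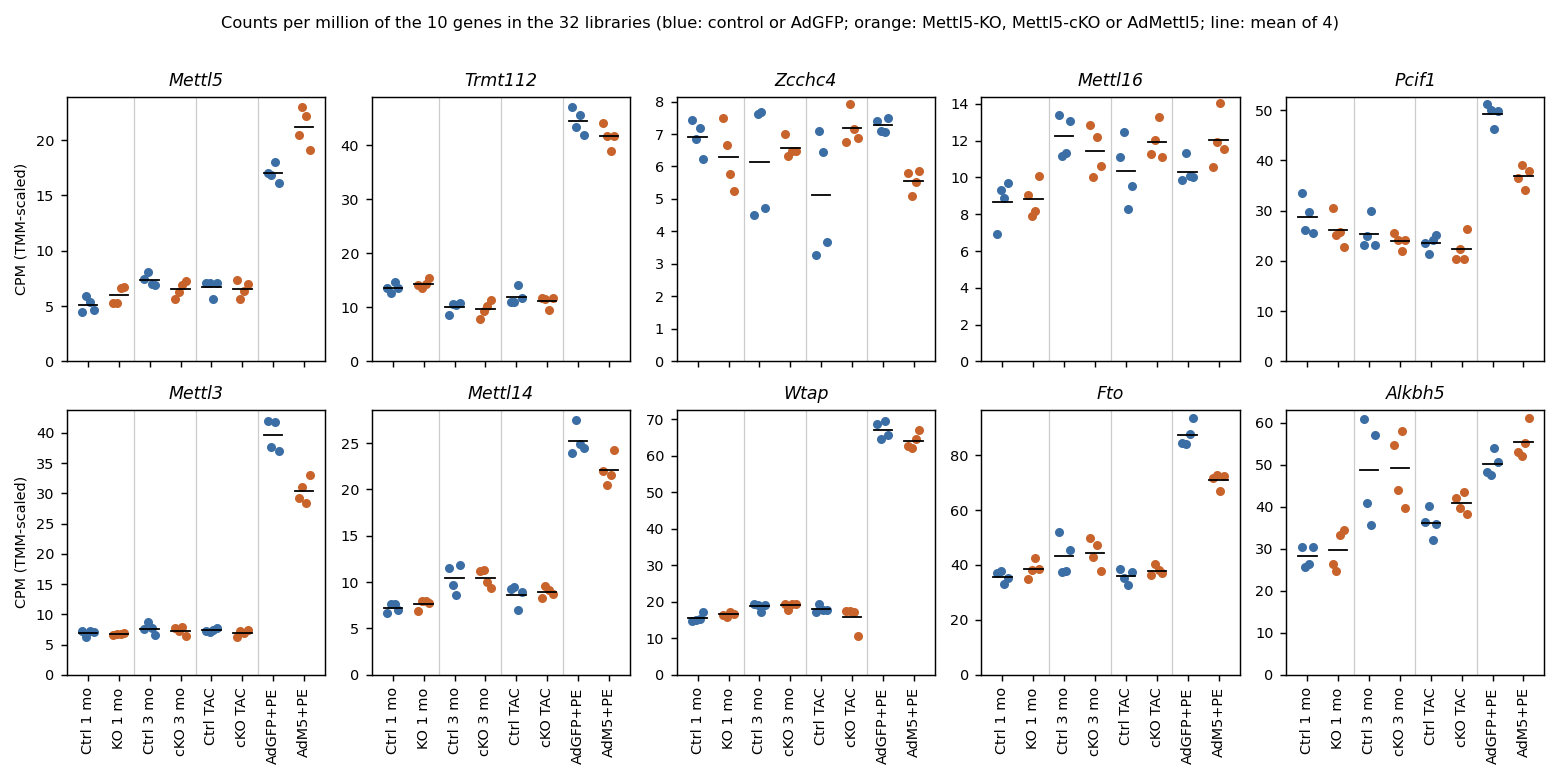
TMM-scaled CPM (each panel with its own axis from 0) of the 10 genes in the 32 libraries by group. Blue points are Ctrl or AdGFP libraries, orange points Mettl5-KO, Mettl5-cKO or AdMettl5 libraries, and lines are means of 4. In the hearts, blue and orange points of a pair overlap for all 10 genes. In NRVMs Mettl5 is higher and Zcchc4, Pcif1, Mettl3 and Fto are lower in all 4 AdMettl5 libraries.

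In Mettl5-KO hearts at 1 month, no other member rose or fell past the test. Of the 10 genes 0 were changed, beside 0.00612% of all 16329 genes tested. At an unadjusted p under 0.05 the count was 0 of 10 as well, beside 4.57% of all genes, and DESeq2 also called 0. The fitted changes of the 9 other genes ran from -0.14 (Pcif1) to 0.11 (Fto), and their 95% intervals stayed between -0.45 (Zcchc4) and 0.37 (Alkbh5), that is between 0.734-fold and 1.30-fold. Trmt112, the partner that stabilises METTL5, had 13.5, 12.7, 14.7 and 13.5 CPM in Ctrl and 14.2, 13.6, 14.3 and 15.5 CPM in Mettl5-KO hearts, with the groups overlapping (log2 fold change 0.08, SE 0.09). Zcchc4, the other rRNA m6A writer, was at 7.44, 6.83, 7.18 and 6.22 CPM against 7.50, 6.66, 5.78 and 5.24 CPM (-0.14, SE 0.14). Every library of Mettl3 lay between 6.26 and 7.30 CPM, whichever the label. No fitted change of a member at 1 month exceeded 0.22 in size, and a transcript rise above 1.30-fold lay outside the interval of each of the 9 genes. Each interval holds for its gene alone and not for the 9 together, and protein and enzyme activity were not measured here.

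In unstressed Mettl5-cKO hearts at 3 months none of the members was changed either. The count was 0 of 10, beside 0.0732% of 16391 genes, and 0 of 10 had an unadjusted p under 0.05 (7.05% of all genes). Adjusted p-values ran from 0.884 to 0.999, and DESeq2 called 0. Fitted changes of the 9 other genes lay between -0.10 (Mettl16) and 0.10 (Zcchc4), with intervals reaching up to 0.52 (Zcchc4, 1.43-fold) and down to -0.41 (Alkbh5, 0.753-fold).

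The libraries of 1 genotype nevertheless differed more among themselves in some members than the genotypes did. Alkbh5, an mRNA demethylase, had 60.9, 40.9, 35.8 and 57.1 CPM in the Ctrl hearts and 54.6, 43.9, 58.1 and 39.8 CPM in the Mettl5-cKO hearts. Both groups thus held a high and a low pair, and the fitted difference was 0.01 (SE 0.19). Fto, the other demethylase, was at 51.9, 37.5, 38.0 and 45.3 CPM in the same Ctrl libraries and at 49.7, 43.1, 47.4 and 37.6 CPM in the Mettl5-cKO libraries, in nearly the same order as Alkbh5. Zcchc4 ran the other way in the Ctrl hearts, with 4.52, 7.61, 7.68 and 4.73 CPM, but was even in the Mettl5-cKO hearts at 7.0, 6.32, 6.46 and 6.47 CPM. The summed endothelial markers (Pecam1, Cdh5, Kdr, Tek and Tie1) of these Ctrl libraries were 465, 700.0, 720.1 and 572 CPM, and of the Mettl5-cKO libraries 367, 438, 448 and 544 CPM. With the mean endothelial level as a covariate, an alternative chosen after the data were seen, the change of Alkbh5 became -0.42 (adjusted p = 0.125) and that of Fto -0.27 (adjusted p = 0.0788), still with 0 members called.

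After TAC, Mettl5-cKO and Ctrl hearts differed widely, yet none of the m6A genes passed the test: 0 of 10 members were changed beside 12.7% of the 16340 genes tested. At an unadjusted p under 0.05 the count was again 0 of 10, beside 31% of all genes, and DESeq2 called 0. Fitted changes of the 9 other members ran from -0.19 (Wtap) to 0.49 (Zcchc4). Their intervals lay between -0.53 (Wtap) and 0.50 (Mettl16), except that of Zcchc4, which reached 1.01 and so left a rise of up to 2.01-fold within its bounds.

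Zcchc4 had the largest fitted change of a member among the hearts. It stood at 3.27, 7.09, 6.44 and 3.68 CPM in the Ctrl hearts after TAC and at 6.74, 7.92, 7.14 and 6.88 CPM in the Mettl5-cKO hearts. The Mettl5-cKO libraries were close together, and the Ctrl libraries split into a low and a high pair, of which the high pair overlapped the Mettl5-cKO range. The log2 fold change was 0.49 (SE 0.23, -0.03 to 1.01, adjusted p = 0.186, exact permutation p = 0.0857), and leaving out single libraries gave 0.33 to 0.69 with adjusted p-values of 0.103 to 0.377. Ctrl hearts at 3 months had held a low pair of Zcchc4 libraries as well.

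The demethylase Alkbh5 was at 36.4, 40.2, 31.96 and 35.9 CPM in Ctrl and 42.1, 39.6, 43.4 and 38.3 CPM in Mettl5-cKO hearts after TAC. All but 1 Ctrl library lay below all Mettl5-cKO libraries, and the fitted change of 0.18 (SE 0.08, -0.01 to 0.37) had an adjusted p of 0.186. Wtap, the adaptor of the METTL3 complex, had 17.1, 19.3, 17.7 and 17.8 CPM in Ctrl hearts against 17.6, 17.5, 17.2 and 10.6 CPM in Mettl5-cKO hearts. The low value came from a single library with 212 counts, and without it the change of Wtap moved from -0.19 to -0.04. That library, Mettl5-cKO library 4, stood apart from its group in more than Wtap. Its fibroblast marker sum was 918 CPM, against 2977, 2056 and 2004 CPM in the others. Its cardiomyocyte marker sum was 35808 CPM, against 28740, 26623 and 26960 CPM. The part of this difference in the Wtap value was not tested. Mettl3 and Mettl14, the other core subunits, had changes of -0.07 (SE 0.09) and 0.05 (SE 0.11), and Fto had 0.08 (SE 0.08).

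Cell type markers changed in this comparison, where no member passed the test and 12.7% of all genes tested were called. Fibroblast markers were changed upward in 6 of 7 genes, with sums of 574 to 761 CPM in Ctrl and 918 to 2977 CPM in Mettl5-cKO hearts. Endothelial markers were changed downward in 5 of 5, from 543 to 635 CPM in Ctrl to 370 to 497 CPM in Mettl5-cKO hearts. Cardiomyocyte markers were lower in 2 of 7, and macrophage markers higher in 2 of 5, with defining markers of each list present in all libraries. Their part in the values of the members was not tested apart from genotype. A fit with the endothelial level as a covariate called 0 members. It gave changes of 1.01 for Zcchc4 (adjusted p = 0.808) and -1.001 for Wtap (adjusted p = 0.574). The mean endothelial level did not overlap between the groups (log2 CPM 6.60 to 6.81 in Ctrl, 6.004 to 6.42 in Mettl5-cKO hearts). That fit therefore cannot separate genotype from the endothelial level, and no conclusion is drawn from it.

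Among the other genes of the pathway, 2 of 8 tested m6A readers were changed after TAC, beside 12.7% of all genes tested. Igf2bp2, an RNA-binding protein that stabilises methylated transcripts, rose in Mettl5-cKO hearts from 5.32 ± 1.25 to 9.0 ± 1.11 CPM (SD, n = 4 in each group, log2 fold change 0.76, adjusted p = 0.0244 by edgeR). Its estimate was also above 0 without TAC: in hearts at 3 months it was 0.98 (3.30 ± 0.528 to 6.53 ± 3.67 CPM, adjusted p = 0.606 by edgeR), and not called. After TAC Hnrnpa2b1, a splicing factor and nuclear reader, fell from 264 ± 21.6 to 208 ± 16.2 CPM (-0.34, adjusted p = 0.0345), a call that was lost with library size as the only scaling. Of 14 interferon-stimulated genes tested, 5 were lower in Mettl5-cKO hearts, beside 997 of all 16340 genes. With library size alone 2 were lower (Rsad2 and Mx2), beside 525 of all genes. Rsad2, an antiviral enzyme, fell from 26.0 ± 2.69 to 10.8 ± 2.47 CPM (-1.28, adjusted p = 0.00482). None of the 5 accessory subunits of the writer complex, the 6 other methyltransferases served by TRMT112, the 8 other rRNA modifiers or the 5 genes of S-adenosylmethionine supply was changed, and at 1 month and 3 months none of the genes of any of these 6 lists was. Library size alone added Thumpd3 and Ahcy after TAC, both higher.

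**Figure D3:**
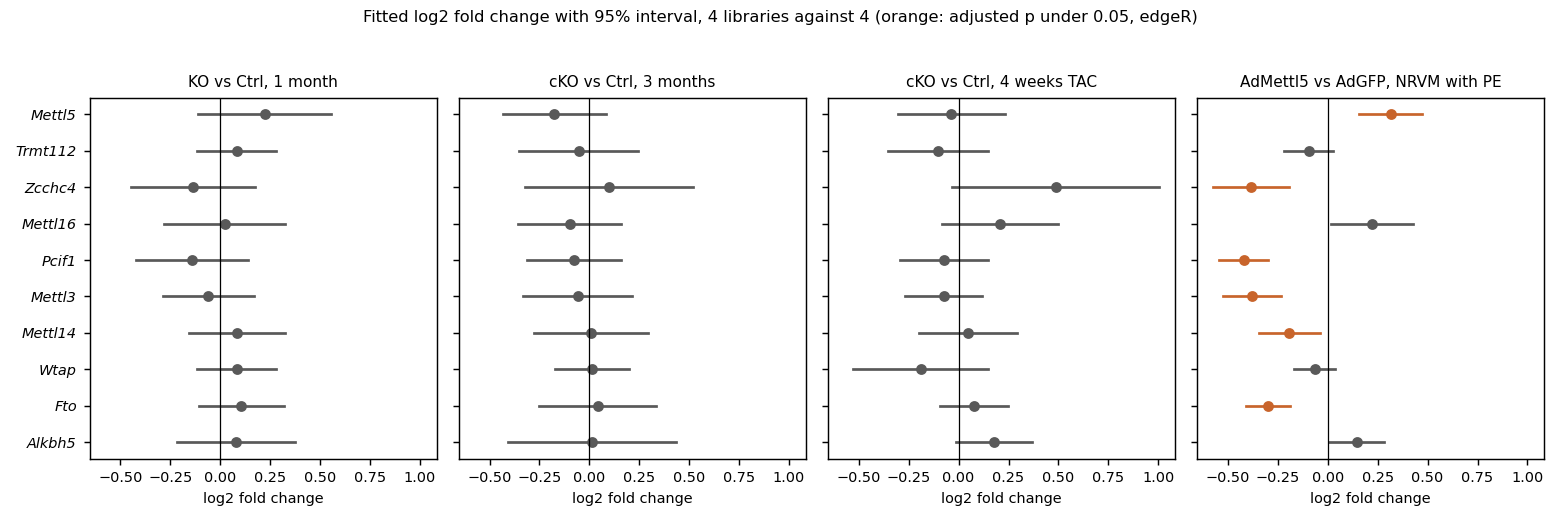
Log2 fold change (points) with 95% interval (lines) of the 10 genes in the 4 comparisons of 4 libraries against 4, on 1 shared axis. Orange marks an adjusted p under 0.05 by edgeR. All intervals in the 3 heart comparisons include 0, and in NRVMs Mettl5 is raised and Zcchc4, Pcif1, Mettl3, Mettl14 and Fto are lowered.

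Whether the genotype difference of a member changed with TAC was tested in a joint fit of the 16 libraries at 3 months and after TAC. The interaction was called for 0 of 10 members (0.00586% of 17070 genes), with an unadjusted p under 0.05 for 0 members (11.8% of all genes) and 0 calls by DESeq2. The largest estimates were 0.40 (SE 0.32) for Zcchc4 and 0.32 (SE 0.18, adjusted p = 0.510) for Mettl16, the writer of U6 snRNA. For Mettl5 the interaction was 0.16 (-0.18 to 0.49).

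In the same fit, Ctrl hearts after TAC were set against unstressed Ctrl hearts. These are separate tables, and surgery and table cannot be told apart. Of the 10 members 0 were changed by edgeR (0.516% of 17070 genes) or by DESeq2, and 9 of the 10 fitted changes were below 0. Alkbh5 was at 61.0, 40.5, 35.7 and 57.6 CPM (scaled over the 16 libraries) without and 36.4, 40.0, 32.2 and 35.6 CPM with TAC, and its change was -0.43 (SE 0.16, adjusted p = 0.180). The low pair of unstressed libraries overlapped the TAC range. Fto (-0.27, SE 0.11, adjusted p = 0.228) and Mettl14 (-0.27, SE 0.12, adjusted p = 0.254) had unadjusted p-values under 0.05 too, which gives 3 of 10 members beside 17.6% of all genes. Trmt112 was the single member whose groups did not overlap, at 8.58, 10.5, 10.3 and 10.8 CPM without and 11.0, 10.9, 14.2 and 11.7 CPM with TAC, and 11.7% of all genes had groups that did not overlap. Its change was 0.25 (SE 0.12, adjusted p = 0.309). Prdx5, which overlaps 33.2% of the Trmt112 exon bases, had 4203 to 5575 unscaled counts without and 5483 to 6028 with TAC. The part of Prdx5 reads in the Trmt112 values was not tested. For Mettl5 the estimate was -0.12 (SE 0.11).

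In PE-treated NRVMs, AdMettl5 was accompanied by lower levels of Zcchc4, Pcif1, Mettl3, Mettl14 and Fto and by a higher level of the rat Mettl5 gene. Of the 10 members 6 were changed, 1 upward and 5 downward, beside 52.8% of all 15041 genes tested (27.1% higher and 25.7% lower). An unadjusted p under 0.05 was reached by 8 members and by 58.2% of all genes. None of the 10 changes exceeded 1 in size, a bound that 5.85% of all genes passed together with the test. The count of changed members is thus near that of genes at large, and what follows describes each gene by itself. With library size as the only scaling, which shifted the median of all genes by 0.14, 7 members were called, 3 upward (Mettl5, Mettl16 and Alkbh5) and 4 downward (Zcchc4, Mettl3, Fto and Pcif1), beside 5869 higher and 2344 lower of all 15041 genes.

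The rat Mettl5 gene (ENSRNOG00000008469) had 17.1, 16.8, 18.02 and 16.2 CPM with AdGFP and 20.5, 23.0, 22.2 and 19.1 CPM with AdMettl5. The groups did not overlap, and the change was 0.32 (SE 0.07, 0.16 to 0.47, adjusted p = 0.00295), or 1.24-fold. The table has no row for the human insert, and how many of its reads were assigned to the rat gene was not tested. Trmt112 did not pass the test, at 47.0, 43.3, 45.5 and 41.9 CPM against 44.1, 41.7, 38.8 and 41.7 CPM (-0.10, SE 0.06, adjusted p = 0.173), with an interval of -0.22 to 0.03. With library size alone the sign of that estimate turned (0.04).

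Among the methyltransferases outside the METTL3 complex, Zcchc4 and Pcif1 fell and Mettl16 did not pass the test. Zcchc4 went from 7.41, 7.09, 7.06 and 7.49 CPM to 5.80, 5.10, 5.51 and 5.85 CPM (-0.38, SE 0.09, adjusted p = 0.00292). Pcif1, the cap methyltransferase, went from 51.1, 50.03, 46.3 and 49.7 CPM to 36.4, 39.0, 34.0 and 37.9 CPM (-0.42, SE 0.06, adjusted p = 6.26e-05). All 4 AdMettl5 libraries lay below all AdGFP libraries for both genes. Mettl16 was at 9.84, 11.3, 10.1 and 10.1 CPM against 10.6, 11.9, 14.04 and 11.6 CPM (0.22, SE 0.09, adjusted p = 0.0674), with overlapping groups.

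Of the mRNA writer core, the catalytic subunit Mettl3 fell from 42.0, 37.6, 41.8 and 37.1 CPM to 29.2, 31.1, 28.3 and 33.0 CPM without overlap (-0.38, SE 0.07, adjusted p = 0.000444). Mettl14, its partner, went from 23.9, 27.5, 24.96 and 24.5 CPM to 21.98, 20.5, 21.5 and 24.3 CPM, where the highest AdMettl5 library lay above the lowest AdGFP library (-0.19, SE 0.07, adjusted p = 0.0343). That call was lost with library size alone (-0.06, adjusted p = 0.556) and when any of AdGFP library 2 or AdMettl5 libraries 1, 2 and 3 was left out (adjusted p = 0.0953, 0.0697, 0.103 and 0.0841). Wtap was at 68.7, 64.5, 69.6 and 65.6 CPM against 62.8, 62.0, 64.7 and 67.1 CPM, with overlapping groups (-0.07, SE 0.05, adjusted p = 0.268), and its sign turned with library size alone (0.07).

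The erasers did not move together. Fto fell from 84.4, 83.9, 87.7 and 93.4 CPM to 71.8, 72.6, 67.1 and 72.6 CPM, all 4 libraries below all AdGFP libraries (-0.30, SE 0.05, adjusted p = 0.000331). Alkbh5 was at 48.3, 47.5, 53.9 and 50.7 CPM against 52.9, 52.2, 55.2 and 61.2 CPM, where the groups overlapped and the change of 0.14 (SE 0.06, 0.01 to 0.28) did not pass the test (adjusted p = 0.0704). Groups that did not overlap were found for 5 members, 1 higher and 4 lower, beside 48.4% of all genes (25.2% higher and 23.2% lower). For each of the 5 the exact two-sided permutation p was 0.0286, the smallest that 4 against 4 libraries allow. The lack of overlap fixes that value, so it adds nothing to the count. Mettl5, Zcchc4, Mettl3, Fto and Pcif1 kept an adjusted p under 0.05 in all 13 refits (other tests, scalings, filters and single libraries left out), while none passed the added bound on the size of the change.

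Cardiomyocyte markers were changed downward in 7 of 7 genes in the AdMettl5 libraries (median -1.14) and fibroblast markers in 5 of 6 (median -0.34). Of all genes tested, 25.7% were lower and 27.1% higher. For macrophage markers 2 of 4 were lower and for smooth muscle markers 2 of 4 were higher. Those 2 counts are near the 52.8% of all genes called and are not read as a difference. The AdMettl5 libraries were also the shallower ones. The part of these differences in the changes of the members was not tested.

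Genes that work with the members were called in both directions in NRVMs, where 27.1% of all genes were higher and 25.7% lower. Of the 5 accessory subunits of the writer complex, 4 were higher with AdMettl5 and 0 lower, the opposite sign to Mettl3 and Mettl14. Rbm15, which recruits the complex to RNA, rose from 9.31 ± 0.753 to 18.7 ± 1.54 CPM (SD, n = 4 in each group, log2 fold change 1.01, adjusted p = 1.43e-06 by edgeR), and Cbll1 (0.20), Virma (0.19) and Zc3h13 (0.17) rose less. Of 10 readers, 8 were higher and 0 lower, led by Igf2bp1 (0.93), Igf2bp2 (0.63) and Igf2bp3 (0.55), which protect methylated transcripts from decay, and followed by Hnrnpc (0.35). The medians of these lists were 0.19 and 0.27, beside -0.0022 for all genes.

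Of the 6 other clients of TRMT112, 1 was higher and 3 lower, and of the 8 other rRNA modifiers 3 were higher and 2 lower, both near the 52.8% of all genes called, so the genes are given as single values. Bud23, which modifies a guanine of 18S rRNA, rose by 0.39, whereas N6amt1, a methyltransferase of translation release factor, fell by 0.61, Thumpd2 by 0.45 and Thumpd3 by 0.33. Among the rRNA modifiers, Fbl (0.44), the 2′-O-methyltransferase of box C/D particles, and Nop2 (0.30) rose, and Nsun5 (-0.42), which methylates a cytosine of 28S rRNA, fell. Dkc1 (0.18), the pseudouridine synthase of box H/ACA particles, was the other that rose. Dimt1 (-0.28), which dimethylates adenines of 18S rRNA and is named here after its value was seen, was the other that fell, a call lost with library size alone.

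Of the 5 genes of methyl donor supply and use, 3 were higher and 0 lower, or 2 with DESeq2 size factors, beside 52.8% of all genes called. Mat2a, which makes S-adenosylmethionine and whose transcript is a METTL16 substrate, went from 197 ± 9.10 to 277 ± 10.5 CPM (SD, n = 4 in each group, log2 fold change 0.49, adjusted p = 5.21e-06 by edgeR), and its regulatory subunit Mat2b rose by 0.58. Ahcy, which clears the by-product S-adenosylhomocysteine, was the last of the 3 called (0.11, adjusted p = 0.0427), a call that was lost with DESeq2 size factors. All 15 interferon-stimulated genes were higher with AdMettl5, with a median of 3.86 and under each scaling. Among those with the smallest adjusted p, Ifit2 rose by 2.13, Irf7 by 4.22 and Mx1 by 3.95. The part of this response in the changes of the m6A genes was not tested.

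**Figure D4:**
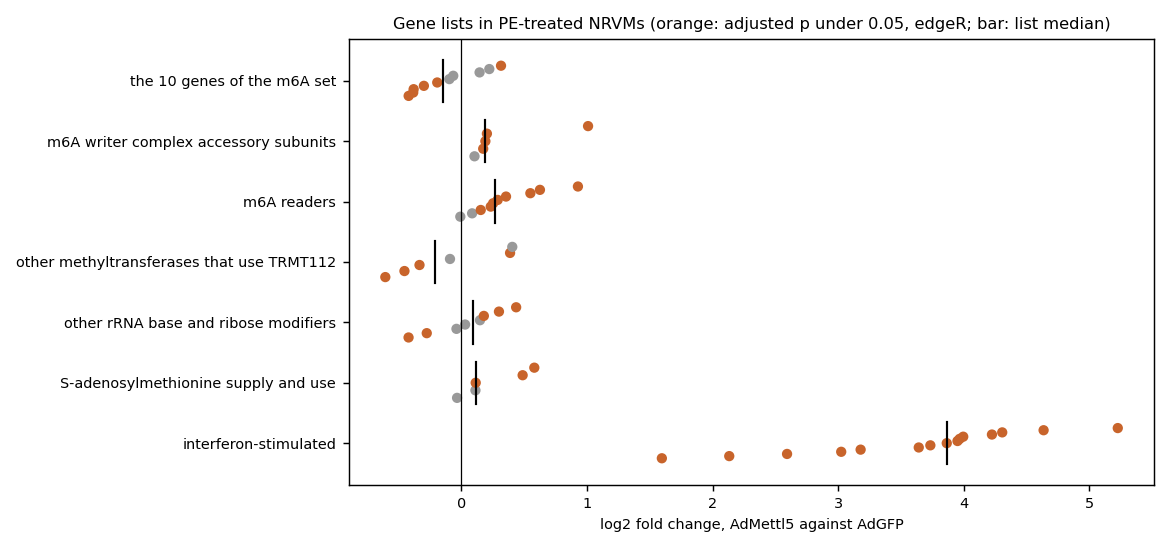
Log2 fold change (AdMettl5 against AdGFP, 4 libraries each) of each tested gene in the 10-gene m6A set and in 6 lists of related genes, with orange for an adjusted p under 0.05 by edgeR and a bar at each list's median. The m6A set has a median of -0.14, accessory subunits and readers lie mostly to the right of 0, and all 15 interferon-stimulated genes lie beyond 1.

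The members were also compared for how they varied between hearts of the same group. After the mean of its group was taken from each log2 CPM value, Fto and Alkbh5 departed together over the 24 heart libraries (Pearson r = 0.76), and Fto and Mettl14 did so as well (0.68). Trmt112 ran against Fto (-0.62) and Mettl14 (-0.55), and Wtap ran against Pcif1 (-0.59). These are descriptions, since the libraries share tables and scaling and each value enters several pairs.

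The demethylases departed against the endothelial marker level of the library. Over the 24 hearts r was -0.79 for Fto, -0.74 for Alkbh5 and -0.58 for Mettl14, and 0.58 for Trmt112 and 0.45 for Zcchc4. For comparison, the middle 90% of 15543 genes lay between -0.64 and 0.64, so that Fto and Alkbh5 were outside that range and the others within it. The hearts at 3 months weighed most: there r was -0.97 for Fto and -0.88 for Alkbh5 over 8 libraries, against -0.40 and -0.42 at 1 month and -0.40 and -0.52 after TAC. Mettl5 had an r of 0.05 over the 24 hearts, with signs that differed: -0.50 at 1 month, 0.52 at 3 months and -0.14 after TAC. Against the cardiomyocyte marker level its r was 0.44, where the middle 90% of genes ran from -0.56 to 0.61. That value too was uneven, at 0.50, -0.23 and 0.66 in the same order. In the 8 NRVM libraries, where the endothelial markers summed to only 37.9 to 55.0 CPM, Fto had an r of 0.11 and Alkbh5 of 0.82. Other marker lists also put members outside their middle 90% over the 24 hearts. Alkbh5 was at -0.63 with smooth muscle markers (-0.44 to 0.47) and Zcchc4 at -0.39 with skeletal muscle markers (-0.37 to 0.35). With T and B cell markers, which summed to at most 2.36 CPM, Mettl3 was at 0.60 and Wtap at -0.46 (-0.32 to 0.31).

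**Figure D5:**
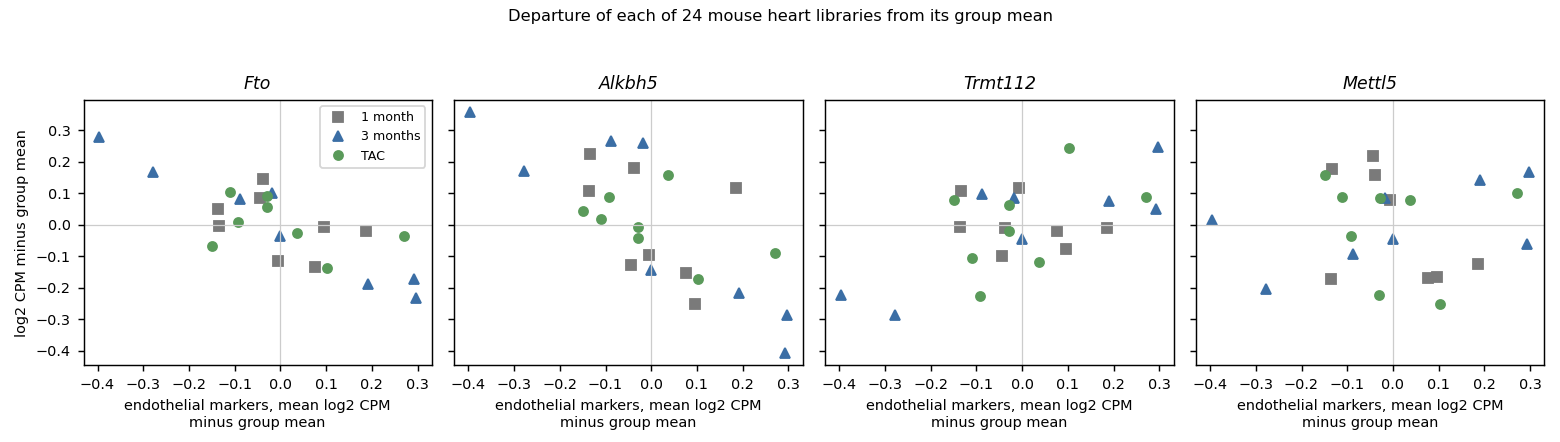
Departure of log2 CPM from the group mean for Fto, Alkbh5, Trmt112 and Mettl5 (vertical axes) against the departure of the mean log2 CPM of 5 endothelial markers (horizontal axes) in 24 heart libraries, with the 3 experiments marked by shape. Fto and Alkbh5 slope downward, most clearly in the hearts at 3 months. Trmt112 slopes upward over all 24 libraries but not at 1 month (r = -0.33). Mettl5 slopes downward at 1 month and upward at 3 months, with almost no slope over all 24.

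The genes whose departures were most like those of Mettl5 over the 24 hearts, among 15543 genes, were Ruvbl1 (r = 0.81), an ATPase of chromatin and snoRNP assembly, Gcsh (0.80), a subunit of the glycine cleavage system, Ube2k (0.80), a ubiquitin-conjugating enzyme, Hsbp1 (0.76), a heat shock factor binding protein, and Gm5525 (0.74). None of the other 9 members was among them, and the member closest to Mettl5 was Mettl16 (0.20). In the 8 NRVM libraries, too few for a stable order, Mettl16 was again the closest member (0.36) and Zcchc4 the most opposed (-0.86).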

How the data were processed

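RNA was sequenced from 24 mouse heart and 8 NRVM libraries (BGIseq). The deposited values are estimated counts per gene, given as whole numbers, which the authors made from aligned reads. The submitters' processing notes name HISAT2 2.0.4, StringTie 2.1.4, DESeq2 1.4.5 and the builds GRCm38 and Rnor_6.0. Plain read counts had been assumed when the tests were planned, and the same count test was used. Strand, filters and annotation version are not given in the sources used here.

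Each of the 4 tables was fitted separately (joint fit of 16 libraries for the interaction and for the TAC controls) with edgeR 4.0.16 (TMM, quasi-likelihood test, limma 3.58.1, R 4.3.3), 4 libraries against 4, after filterByExpr (minimum count 10, minimum total 15). Benjamini-Hochberg adjustment ran over all genes tested. CPM were set to TMM-scaled library totals, and log2 CPM used a prior count of 2. Total counts of 14324700 to 21804910 per library, and 66 to 1608 counts per member, set the precision. The fits were tested on simulated data. Lengths, overlaps and sequences came from GENCODE vM21 on GRCm38, which held 55141 of 55487 gene IDs (99.4%). Counts of all 48 pairs of libraries within groups differed beyond sampling noise (lowest chi-square divided by its degrees of freedom 2.16), so each library was counted once. That check cannot show that libraries came from separate animals or cultures. AdGFP libraries 1 and 2 (3.32) and 3 and 4 (3.06) were closer to each other than the remaining AdGFP pairs (8.73 to 11.4). Whether these are batches is not given in the sources used here. At 1 month, Ctrl library 1 stood furthest from its group (83.5 to 151, other Ctrl pairs 18.1 to 60.0).

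The members and all gene lists were chosen with earlier results of these data known. Named are the 10 members, genes that overlap them and pseudogenes named after them, every gene of a list that was changed in a mouse comparison, in NRVMs the up to 4 changed genes of each list with the smallest adjusted p, and the 5 genes most like Mettl5 in the hearts. Alternatives were DESeq2 1.42.0, DESeq2 size factors, library size alone, other filters, other thresholds, the replicate number as a block, single libraries left out, and 3 chosen after the data were seen (the 1-month libraries with Xist, an endothelial covariate, and transcript length). Some genes that this rule names are not reported here.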

Additional observations from a re-analysis of the deposited data

Results flagged for a closer look

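Of 80 groups of 4 libraries (10 genes in 8 groups), 7 held 1 library that stood apart from the other 3 by Dixon's test, where chance gives about 1 in 20, or 4. For Wtap there were 3 such groups: 17.3 CPM in Ctrl library 3 at 3 months (nearest 19.2), 17.9 CPM in Mettl5-cKO library 2 at 3 months (nearest 19.3) and 10.6 CPM in Mettl5-cKO library 4 after TAC (nearest 17.2). For Trmt112 there were a pair, 8.57 CPM in Ctrl library 1 at 3 months (nearest 10.4) and 9.44 CPM in Mettl5-cKO library 3 after TAC (nearest 11.6). The other 2 were Mettl5 in Ctrl library 3 after TAC, at 5.61 CPM (nearest 7.09), and Fto in AdMettl5 library 3, at 67.1 CPM (nearest 71.8). All 7 were the lowest of their group. Without the low Wtap library after TAC, the change of Wtap was -0.04.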

How the results depend on the processing

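In the 3 heart comparisons, the interaction and the TAC controls, 0 members were called under every scaling, test, filter and left-out library tried; in NRVMs 5 to 7 were called when single libraries were left out, and 0 passed with the added bound of an absolute log2 fold change over 1. Leaving out single libraries gave log2 fold changes of Mettl5 of 0.16 to 0.31 at 1 month, -0.23 to -0.11 at 3 months, -0.10 to 0.035 after TAC and 0.27 to 0.36 in NRVMs.

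Signs turned for small estimates. Library size alone gave 0.11 for Mettl5, 0.035 for Trmt112, 0.072 for Mettl3 and 0.065 for Pcif1 after TAC, 0.039 for Trmt112 and 0.070 for Wtap in NRVMs, and interactions of 0.039 for Trmt112 and 0.073 for Mettl3. This scaling moves the median of all genes by 0.15 after TAC and 0.14 in NRVMs. The 6 libraries with Xist counts gave -0.090 for Mettl16 at 1 month. The endothelial covariate, also chosen after the data were seen, gave -0.029 for Alkbh5 at 1 month. At 3 months it gave 0.19 for Trmt112, -0.23 for Mettl14, -0.037 for Wtap, -0.27 for Fto, -0.42 for Alkbh5 and 0.037 for Pcif1. After TAC it gave 0.17 for Trmt112, 0.10 for Mettl3, -0.11 for Mettl14, -0.043 for Mettl16, -0.056 for Fto, -0.040 for Alkbh5 and 0.31 for Pcif1. After TAC the endothelial level did not overlap between the genotypes, so estimates of that fit cannot be told apart from the genotype difference. The cause of these turns was not tested.

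Leaving out single libraries gave -0.072 to 0.079 for Mettl16 at 1 month. At 3 months the ranges were -0.14 to 0.030 for Trmt112, -0.023 to 0.22 for Zcchc4, -0.13 to 0.011 for Mettl3, -0.075 to 0.074 for Mettl14, -0.023 to 0.039 for Wtap, -0.021 to 0.14 for Fto, -0.11 to 0.14 for Alkbh5 and -0.12 to 0.014 for Pcif1. After TAC Mettl14 ran from -0.033 to 0.097, and in the TAC controls Mettl3 from -0.12 to 0.0092. Interactions ran from -0.12 to 0.057 for Trmt112, -0.066 to 0.064 for Mettl3, -0.029 to 0.13 for Mettl14, -0.048 to 0.12 for Fto and -0.085 to 0.058 for Pcif1.

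At 1 month, same-numbered libraries of both groups had correlations of their departures of 0.24, 0.12, -0.11 and 0.08, so the numbers were not taken as pairs; with the replicate number as a block Mettl5 had 0.22 (adjusted p = 0.916) and 0 members were called. No paired analysis was possible because the columns of the other 3 tables carry no replicate numbers that match across groups. In NRVMs Mettl16 was called without AdGFP library 2 or AdMettl5 library 1 (adjusted p = 0.0484 and 0.0320), and Alkbh5 without AdGFP library 3 (adjusted p = 0.0397). Depth limits Zcchc4 and Mettl5 most, with as few as 66 and 89 counts.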
